A study of Mus musculus with 6 samples.

Results

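The 10 genes Mcidas, Gmnc, Deup1, Ccno, Cdc20b, Plk4, Foxj1, Myb, Ccna1 and Trp73 are regulators of multiciliated cell formation, and were taken by gene symbol from the 32285 genes of the deposited matrices. Each symbol matched 1 row. Multiciliated cells of the brain are the ependymal cells that line the ventricles and the epithelial cells of the choroid plexus. Their formation is started by Gmnc (geminin coiled-coil domain containing, also called GEMC1) and Mcidas (multicilin), which act with E2F factors to switch on a centriole amplification programme in a cell that has left the cell cycle. The products of that programme build many basal bodies, and Foxj1 with RFX factors then drives the genes of the motile cilium.

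Single-nucleus RNA-sequencing (snRNA-seq) was done on 6 mouse brains without the olfactory bulbs and the cerebellum, 3 of them injected with LPA and 3 with vehicle alone. C57BL/6 S-56 neonates were injected with 5 µl into the right lateral ventricle at P7 and their brains were collected at P15. Lysophosphatidic acid (LPA) is a blood-borne lipid whose injection is used as a model of post-hemorrhagic hydrocephalus, and the vehicle was a solution of bovine serum albumin. Both groups therefore had the anesthesia, the surgery and the ventricular injection, and no uninjected brain was analysed here. Each library holds the nuclei of 1 brain that were not stained for NeuN, a protein of neuronal nuclei.

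The 6 libraries held 48852970 to 65688644 unique molecular identifiers (UMIs) in 8639 to 12894 barcodes, of which 57443 nuclei were kept. Among the kept nuclei, 370 of 57061 different barcodes occurred in more than 1 library. Clusters were named from marker genes, with the 10 regulators, the gene lists used below and the markers themselves left out of the genes that were clustered, so each name means nuclei that are like the type by its markers. Ciliated ependymal nuclei made up 2.35%, 1.73% and 2.54% of the nuclei in LPA 1 to LPA 3 and 2.36%, 0.686% and 1.05% in vehicle 1 to vehicle 3. These shares depend on the mitochondrial filter of the study, which removed 2.06%, 8.65% and 15.8% of the ciliated nuclei of LPA 1 to LPA 3 and 34.4%, 47.4% and 46.5% of those of vehicle 1 to vehicle 3. Without it, with each added nucleus given the type of its nearest nuclei, the shares were 2.31%, 1.83% and 2.88% in LPA and 3.37%, 1.25% and 1.87% in vehicle, with vehicle 1 the highest library. The part of this loss in the results below was not tested beyond the same comparisons without the filter. Immune nuclei ranged from 5.48% to 6.19% of the LPA libraries and from 1.26% to 3.45% of the vehicle libraries. Their median depth was 1800 UMIs, against 4144 over all nuclei.

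The 960 ciliated ependymal nuclei fell into 873 mature nuclei and 87 nuclei of forming-cilia type. Of the 12 markers of mature multiciliated ependyma, all were detected in at least 10% of the nuclei of both subtypes. The forming-cilia nuclei were a single sub-cluster in which 6 of 10 forming-cilia markers were at least 1 log2 unit above the other ependymal sub-clusters. Hes6 and Mycl, 2 further markers of that list, had no UMI there, and 9 of 10 markers of dividing cells were detected in at least 10% of the nuclei. Another 5 ependymal sub-clusters, with 258 nuclei, held mostly nuclei that Scrublet called doublets and were left out of the ependymal subtypes as mixed. The 945 choroid plexus nuclei had all 12 of their markers. The forming-cilia name therefore stands on markers other than the regulators, while the markers of dividing cells were present in the same nuclei.

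The genes Ccno, Mcidas and Cdc20b lie next to each other on 1 chromosome and in 1 orientation. Ccno encodes a cyclin-like protein needed for basal body production, and Cdc20b encodes a relative of the mitotic activator Cdc20 that takes part in the release of new centrioles. In GRCm38 (mm10), Ccno is at chr13:112987802-112990777, Mcidas at chr13:112993845-113000394 and Cdc20b at chr13:113035111-113091195, all on the plus strand. A gap of 3067 bases separates Ccno from Mcidas and a gap of 34716 bases separates Mcidas from Cdc20b. Introns of Cdc20b also hold the hairpins of the miR-449 family, whose members are known for their part in multiciliogenesis. The mature sequences from RefSeq (GRCm38.p6) are shown because they lie inside a member that had most of its UMIs in forming-cilia nuclei when the 6 libraries were pooled, and the capitals mark the seed, bases 2 to 8.
mmu-miR-449c-5p: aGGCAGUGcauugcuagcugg
mmu-miR-449a-5p: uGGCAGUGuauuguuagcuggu
They lie on the plus strand at chr13:113036008-113036028 and chr13:113037549-113037570, outside every annotated exon of Cdc20b, and share the seed GGCAGUG. Mature miRNAs were not measured by these 3′ libraries, so the values below are those of the host gene.

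The stretches before the start sites of the members that were high together are shown next, since Mcidas acts with E2F factors and RFX factors bind promoters of ciliary genes. An E2F-type match was the heptamer TTCCCGC or 1 of 3 variants of it, which were TTCGCGC and also TTGCCGC and also TTGGCGC, and an RFX-type match was the hexamer GTTGCC. Both kinds were searched on both strands in the 250 bases before each start site in RefSeq (GRCm38.p6). The capitals mark the matches. The last 23 of the 250 bases printed for Mcidas lie inside the annotated gene. For Deup1 the outer part of the window is printed, which lies outside the annotated gene. For Cdc20b all 250 bases before the RefSeq start site lie inside the annotated gene, and a stretch of 30 bases is printed.
Ccno, chr13:112987552-112987801, plus strand: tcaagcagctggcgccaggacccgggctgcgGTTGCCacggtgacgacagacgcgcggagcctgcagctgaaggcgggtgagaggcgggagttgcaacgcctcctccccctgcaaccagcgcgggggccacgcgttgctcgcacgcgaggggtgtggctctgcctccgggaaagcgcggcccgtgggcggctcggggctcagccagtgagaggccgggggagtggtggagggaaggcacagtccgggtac
Mcidas, chr13:112993618-112993867, plus strand: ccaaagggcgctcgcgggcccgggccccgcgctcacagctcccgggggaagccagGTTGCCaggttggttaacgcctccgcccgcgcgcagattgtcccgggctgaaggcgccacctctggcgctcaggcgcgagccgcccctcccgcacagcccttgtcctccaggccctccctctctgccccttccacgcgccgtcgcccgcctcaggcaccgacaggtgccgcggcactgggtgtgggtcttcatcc
Cdc20b, chr13:113035168-113035197, plus strand: ggTTCCCGCtttgaTTGCCGCcccgcgggc
Deup1, chr9:15627934-15628096, minus strand: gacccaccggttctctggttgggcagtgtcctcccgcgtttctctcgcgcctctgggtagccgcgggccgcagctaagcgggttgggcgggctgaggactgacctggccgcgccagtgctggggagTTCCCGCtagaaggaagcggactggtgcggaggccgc
The RefSeq table held promoters of 9 of the 10 members, with 12 start sites in all, and Foxj1 was not matched. An E2F-type match was found for 4 members (Deup1, Cdc20b, Plk4 and Trp73), and such a match was held by 7.89% of all 32841 promoters of the same length. The windows of Cdc20b and Trp73 that held these matches lie wholly inside the annotated genes. An RFX-type match was found for 3 members (Mcidas, Ccno and Deup1), against 10.4% of all promoters. That of Deup1 starts at base -79, in the 87 bases of the window that lie inside the annotated gene and are not printed. Gmnc, Myb and Ccna1 had neither. A match of these letters is a description of the sequence and was not tested for binding.

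The forming-cilia nuclei held a large part of the UMIs of the centriole amplification genes in the LPA libraries and a small part in the vehicle libraries. Deup1, which encodes the scaffold of the deuterosome on which new centrioles grow, had a UMI in 80 of 87 forming-cilia nuclei (92.0%, 95% exact binomial interval 84.1% to 96.7%, for counting error only). Cdc20b had one in 78 of the 87 nuclei (89.7%) and Ccna1, a cyclin of the A type best known from the germ line, in 56 (64.4%). The shares in immune nuclei, which should lack these genes, were 0.135% for Deup1, 0.450% for Cdc20b and 0.180% for Ccna1, at a median of 1800 UMIs against 4177 in forming-cilia nuclei. Mcidas, the coactivator that starts the programme, had 190 of its 340 UMIs (55.9%) in the 87 nuclei. Cdc20b had 55.7% of its UMIs there, Deup1 43.6%, Ccna1 42.3% and Ccno 40%. These values pool the 6 libraries, and LPA gave 81 of the 87 nuclei. By library, the 87 nuclei held 54.0% to 68.0% of the Mcidas UMIs in LPA and 7.69% to 16.7% in vehicle, and 46.5% to 71.7% of the Cdc20b UMIs in LPA and 14.3% to 22.8% in vehicle. For Deup1 the range was 41.0% to 58.5% in LPA and 5.19% to 8.64% in vehicle. In the vehicle libraries neuronal nuclei had more Mcidas UMIs than forming-cilia nuclei (20 against 5), and vascular nuclei more Cdc20b UMIs (80 against 60). The nuclei had a median of 7 of the 10 members with a UMI, with a range from 2 to 10, against a median of 1 in mature nuclei and in choroid plexus nuclei. Of the 4 genes Mcidas, Deup1, Ccno and Cdc20b, all were detected in 27 forming-cilia nuclei and 3 of them in another 40. In mature ependyma, 732 of 873 nuclei had none of the 4.

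**Figure D1:**
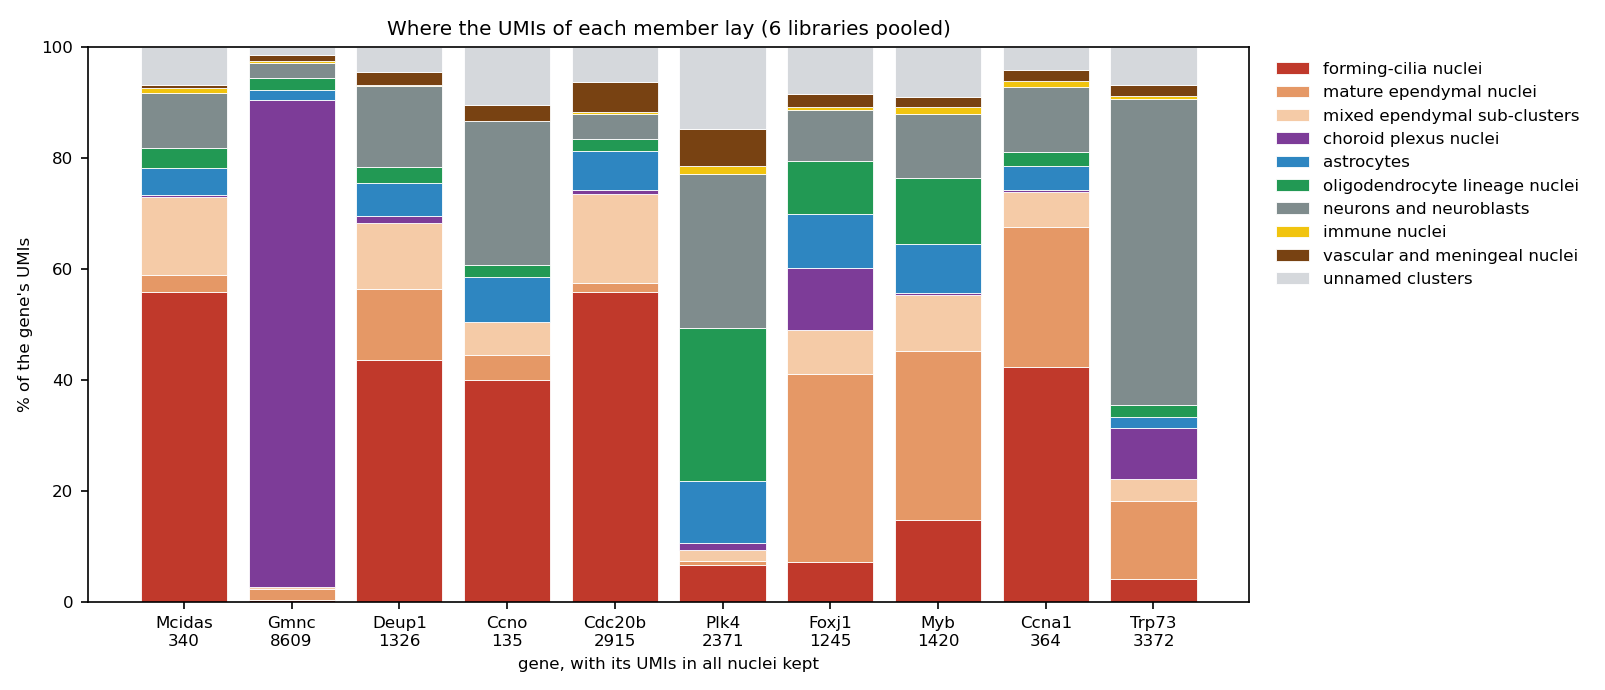
The share of the UMIs of each of the 10 regulators (columns, with its UMIs in all kept nuclei) that lay in each type of nuclei, in percent, with the 6 libraries pooled. Forming-cilia nuclei hold 55.9% of the UMIs of Mcidas and 55.7% of those of Cdc20b, choroid plexus nuclei 87.8% of those of Gmnc, and neuronal nuclei 55.1% of those of Trp73.

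The other members were spread over more types. Foxj1, the forkhead factor of motile cilia, had a UMI in 314 of 873 mature (36.0%), 49 of 87 forming-cilia (56.3%) and 121 of 945 choroid plexus nuclei (12.8%), against 0.270% of immune nuclei. Myb, a factor of early multiciliogenesis, had a UMI in 34.7% of mature and 78.2% of forming-cilia nuclei. In choroid plexus nuclei Myb was detected in 0.741%, near the 0.765% of immune nuclei, which reads as background. Trp73, the p53 family factor that acts upstream of Foxj1, was detected in 38.1% of mature, 66.7% of forming-cilia and 24.4% of choroid plexus nuclei. More than any of these, however, 1 cluster of 506 neuronal nuclei led by Reln held 1727 of the 3372 Trp73 UMIs. Trp73 had 905, 740 and 796 UMIs per 1000000 UMIs of the nuclei summed (CPM) in that cluster in LPA 1 to LPA 3 and 849, 617 and 601 CPM in vehicle 1 to vehicle 3. Both groups overlapped in this cluster, in which vehicle 1 was the second highest library. Plk4, the kinase that starts every new centriole, was the least restricted member, with 27.8% of its UMIs in neuronal and 27.5% in oligodendrocyte lineage nuclei. Its highest level, 63.2 CPM, was in a cluster of 446 dividing precursors led by Top2a. Sums of Trp73 and Plk4 over the whole brain thus mostly describe nuclei that are not multiciliated.

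Gmnc, the factor above Mcidas in the cascade, lay mostly in the choroid plexus nuclei of these brains. Choroid plexus nuclei held 7560 of its 8609 UMIs (87.8%), and 897 of 945 nuclei (94.9%, 95% exact binomial interval 93.3% to 96.2%) had one. Its level there was 1308, 1810 and 1663 CPM in LPA 1 to LPA 3 and 1774, 1643 and 1621 CPM in vehicle 1 to vehicle 3. LPA 1 was the lowest library and LPA 2 the highest, and the 3 vehicle libraries lay between them. In forming-cilia nuclei Gmnc had 24 UMIs in 14 of 87 nuclei (16.1%), and in mature nuclei 171 UMIs in 113 of 873 (12.9%), against 1.26% of immune nuclei. The same choroid plexus nuclei held few UMIs of the centriole amplification genes. Mcidas had 1 UMI and Ccna1 1 UMI in 945 nuclei. Ccno had no UMI in 945 nuclei, which allows up to 0.317% of them to have one at this depth and does not limit the share that expresses it. Deup1 had 17 UMIs in 15 nuclei (1.59%). Cdc20b was detected in 25 nuclei (2.65%), and of the 4 amplification genes above, 905 of 945 nuclei had none. The choroid plexus nuclei thus held Gmnc and few UMIs of the amplification genes.

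Genes with a similar pattern were ranked by Pearson's r of log2(CPM + 1) over 45 points, each a type in a library that had at least 10 of its nuclei. The points of a library share its depth and the points of a type its nuclei, so the r is a description. Mcidas was most like Gm30239 (r = 0.93), Knstrn (0.91), Kctd19 (0.91), Stil (0.90) and Gm11444 (0.90). Gmnc was most like Oca2 (r = 0.94), Acad8 (0.93), Lmx1a (0.92), Folr1 (0.92) and F5 (0.92), 2 of which, Lmx1a and Folr1, are known from the choroid plexus. Foxj1 was most like Spata18, Nek11, Ccdc113, Rpgrip1l and Awat2, each at an r of 0.97.

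The question of the design was what LPA changed, and it was first asked in the UMIs summed over all nuclei of a library, which do not rest on any type name. In such sums, fewer cells of a type and less RNA per cell cannot be told apart. The test was edgeR's quasi-likelihood test over 20207 genes, and a gene was called at a Benjamini-Hochberg adjusted p under 0.05 with a log2 fold-change of 0.25 or more in either direction. Of all genes tested, 5.62% were called (3.41% higher in LPA). Of the 10 members, which all passed the filter on low counts, 5 rose (Mcidas, Cdc20b, Deup1, Ccna1 and Myb), none fell and 5 were not called.

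Mcidas had 87, 88 and 122 UMIs in LPA 1 to LPA 3 and 18, 13 and 12 UMIs in vehicle 1 to vehicle 3, or 2.11, 2.01 and 2.77 CPM against 0.491, 0.253 and 0.256 CPM. The lowest LPA library was far above the highest vehicle library. The log2 fold-change was 2.83 ± 0.27 (SE, n = 3 libraries per group, edgeR adjusted p = 0.00125). Cdc20b had 18.1, 14.9 and 26.8 CPM in the LPA libraries and 2.29, 2.22 and 2.90 CPM in the vehicle libraries. All LPA libraries were again above all vehicle libraries, and the log2 fold-change was 3.02 ± 0.23 (SE, edgeR adjusted p = 0.000518). Deup1 had 6.87, 7.06 and 11.8 CPM in the LPA libraries and 2.10, 1.09 and 1.73 CPM in the vehicle libraries, a log2 fold-change of 2.42 ± 0.28 (SE, edgeR adjusted p = 0.00303). LPA 3 was the highest library for each of these 3 genes. Ccna1 had 2.48, 2.24 and 2.45 CPM in the LPA libraries and 0.573, 0.468 and 0.234 CPM in the vehicle libraries, a log2 fold-change of 2.51 ± 0.25 (SE, edgeR adjusted p = 0.00171). For Myb the difference was smaller, at 7.65, 7.02 and 8.31 CPM against 4.56, 2.53 and 2.88 CPM and a log2 fold-change of 1.23 ± 0.19 (SE, edgeR adjusted p = 0.00954). The groups did not overlap for either gene, as was so with LPA above vehicle for 12.4% of all genes tested.

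The 5 members that were not called had these values. Ccno had 35, 14 and 51 UMIs in the LPA libraries and 12, 13 and 10 UMIs in the vehicle libraries, and LPA 2 was close to the vehicle libraries (log2 fold-change 1.57 ± 0.47, edgeR adjusted p = 0.0889). The call for Ccno was made without LPA 2 (edgeR adjusted p = 0.0172). Trp73 had 13.9 to 15.8 CPM in the LPA libraries and 9.42 to 12.6 CPM in the vehicle libraries (log2 fold-change 0.40 ± 0.11, edgeR adjusted p = 0.0672). Foxj1 had 6.09, 5.08 and 5.97 CPM in the LPA libraries and 5.87, 3.02 and 2.96 CPM in the vehicle libraries (log2 fold-change 0.56 ± 0.24, edgeR adjusted p = 0.231). Vehicle 1, the vehicle library with the largest share of ciliated ependymal nuclei, lay among the LPA libraries, and without it Foxj1 was called (log2 fold-change 0.93, edgeR adjusted p = 0.00726). Plk4 (0.16) and Gmnc (0.16 ± 0.30) had the smallest log2 fold-changes of the 10 members, with edgeR adjusted p of 0.440 and 0.825.

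**Figure D2:**
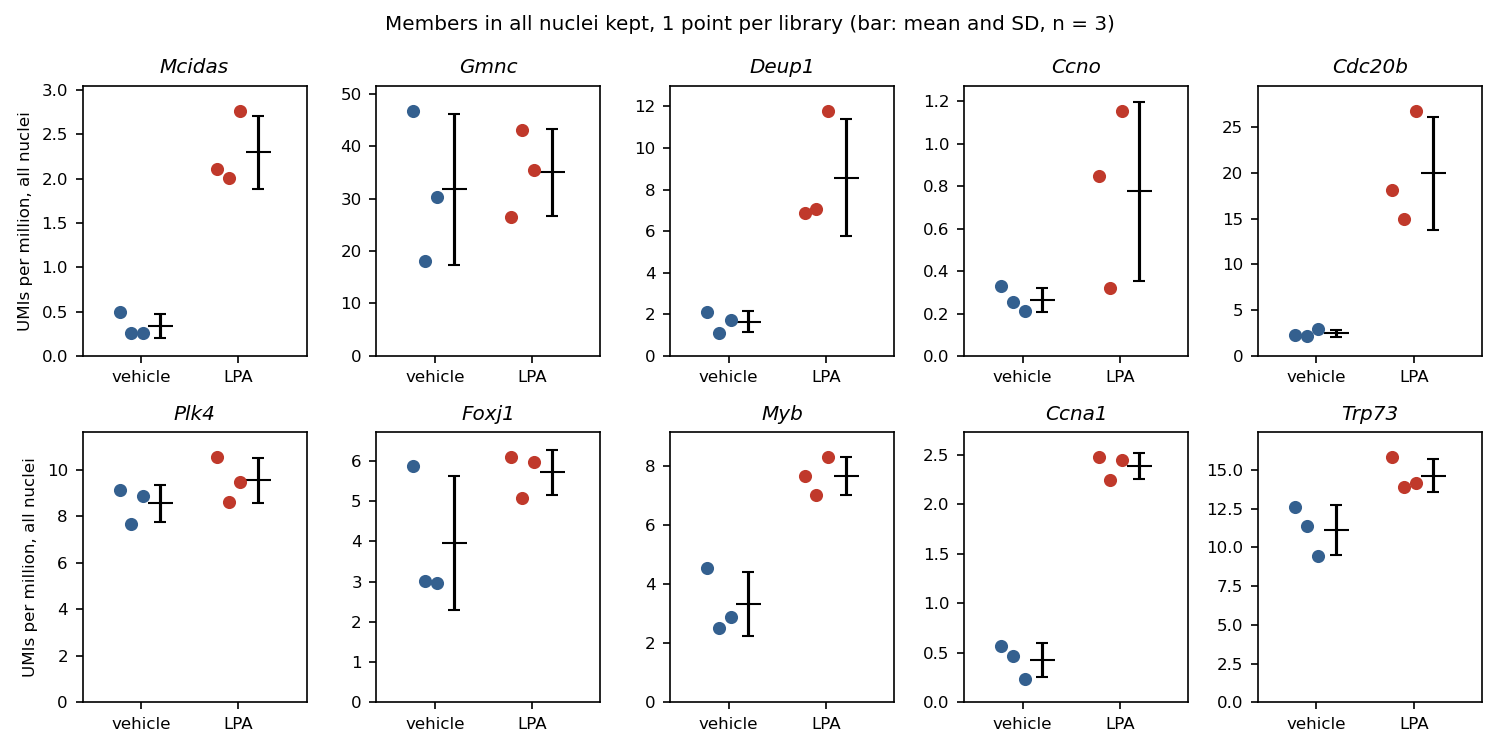
The level of each regulator in each library, in CPM of the UMIs summed over all kept nuclei, with 1 point per library and a bar for the mean and SD of each group of 3 libraries. For Mcidas, Deup1, Cdc20b, Ccna1, Myb and Trp73 the 3 LPA points are all above the 3 vehicle points, while those of Gmnc, Ccno, Plk4 and Foxj1 overlap.

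The same comparison was made in the ciliated ependymal nuclei, mature and forming together, whose make-up differed between the groups. Forming-cilia nuclei were 81 of 578 in LPA and 6 of 382 in vehicle, so a member can differ here by that share alone. Here 8692 genes were tested and 3.97% were called (2.28% higher in LPA). Of the 10 members, 9 passed the filter on low counts, of which 7 rose (Mcidas, Cdc20b, Deup1, Ccna1, Plk4, Myb and Trp73) and 2 (Foxj1 and Gmnc) were not called. Ccno did not pass, with 17, 8 and 29 UMIs in the LPA libraries and 2, 4 and 0 in the vehicle libraries. Mcidas and Plk4 passed through the LPA libraries alone, with no vehicle library at the level asked for (17.5 CPM), so that they had to differ, and the count of 7 is a description. The median depth of these nuclei was 3947, 3127 and 3301 UMIs in the LPA libraries and 2985, 3006.5 and 2265 UMIs in the vehicle libraries.

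Mcidas had 66.6, 98.4 and 103 CPM in the ciliated nuclei of LPA 1 to LPA 3 and 5.32, 4.04 and 10.1 CPM in those of vehicle 1 to vehicle 3. The log2 fold-change was 3.76 ± 0.39 (SE, edgeR adjusted p = 3.69e-08). Cdc20b had 451, 689 and 1052 CPM against 26.6, 76.9 and 108 CPM, a log2 fold-change of 3.55 ± 0.28 (SE, edgeR adjusted p = 1.35e-10). In both genes the lowest LPA library was several times as high as the highest vehicle library. Deup1 had 206, 288 and 447 CPM against 44.4, 52.6 and 57.5 CPM (log2 fold-change 2.64 ± 0.25, edgeR adjusted p = 3.88e-09). Plk4 had 50.3, 79.4 and 91.6 CPM against 14.2, 16.2 and 10.1 CPM (log2 fold-change 2.41 ± 0.35, edgeR adjusted p = 2.30e-05). Plk4 was thus higher in the ciliated nuclei of every LPA library, while its sums over all nuclei overlapped. Ccna1 had 96.8, 119 and 99.0 CPM against 24.8, 20.2 and 3.38 CPM (log2 fold-change 2.52 ± 0.31, edgeR adjusted p = 8.94e-07). Myb had 184, 205 and 277 CPM against 151, 125 and 122 CPM (log2 fold-change 0.71 ± 0.17, edgeR adjusted p = 0.0113). Trp73 had 200, 221 and 212 CPM against 133, 158 and 145 CPM (log2 fold-change 0.55 ± 0.15, edgeR adjusted p = 0.0310). The groups did not overlap for these 3 genes either, as was so with LPA above vehicle for 11.0% of all genes tested. The calls of Myb and Trp73 were the least stable, and were lost in 3 and 7 of 14 alternatives. Without LPA 3 or vehicle 3 the edgeR adjusted p of Myb was 0.156 and 0.0835, and Trp73 lost its call without LPA 2, LPA 3, vehicle 1 or vehicle 3, with an adjusted p of up to 0.230.

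Foxj1 had 152, 143 and 166 CPM in the ciliated nuclei of the LPA libraries and 185, 129 and 128 CPM in those of the vehicle libraries. Vehicle 1 was the highest of the 6 libraries, and the log2 fold-change was 0.00 ± 0.17 (SE, edgeR adjusted p = 0.999). Gmnc had 57.8, 62.2 and 68.1 CPM against 44.4, 93.0 and 33.8 CPM, with vehicle 2 the highest (log2 fold-change 0.23 ± 0.27, edgeR adjusted p = 0.765). For these 2 genes the groups overlapped. Of the 23 Gmnc UMIs in mature nuclei of vehicle 2, 16 lay in 3 nuclei of a sub-cluster led by Rspo2 and Lmx1a. The leading genes of that sub-cluster also held the choroid plexus markers Htr2c and Ttr. The overlap of Gmnc in ciliated and in mature nuclei thus rests in part on few nuclei, and their part of choroid plexus RNA was not tested.

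**Figure D3:**
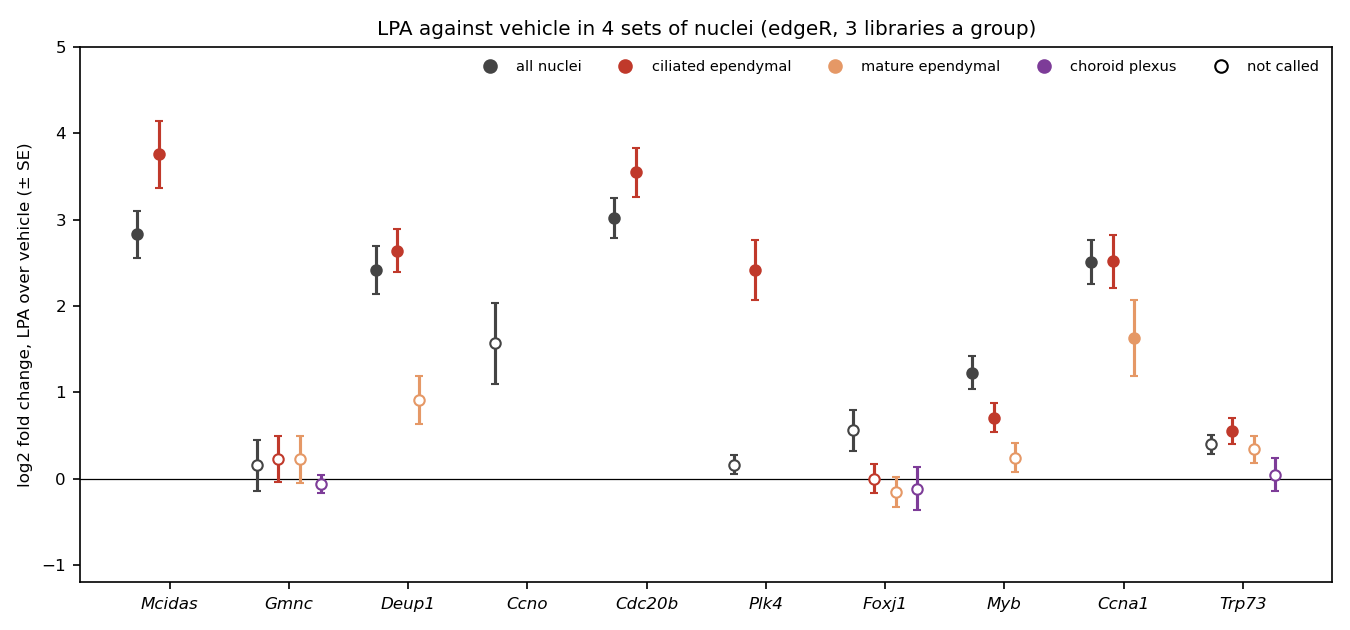
The log2 fold-change of LPA over vehicle for each regulator, with bars of 1 SE from edgeR, in all nuclei and in ciliated ependymal, mature ependymal and choroid plexus nuclei. Open circles were not called, and a member that did not pass the filter on low counts has no point. Mcidas, Cdc20b, Deup1 and Ccna1 lie above 2 in all nuclei and in ciliated nuclei, while the points of Gmnc and Foxj1 are open in all 4 sets.

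The forming-cilia nuclei themselves came mostly from the LPA libraries. LPA 1 to LPA 3 had 20, 26 and 35 such nuclei and vehicle 1 to vehicle 3 had 2, 1 and 3, in all 81 against 6. They were 0.247%, 0.267% and 0.406% of all nuclei in the LPA libraries and 0.0264%, 0.00857% and 0.0255% in the vehicle libraries. The mean share was 0.307% ± 0.0864 (SD, n = 3) in LPA and 0.0202% ± 0.0101 (SD, n = 3) in vehicle, a difference with p = 0.1 in a two-sided exact permutation test. That is the smallest p that the 20 assignments of 3 against 3 libraries can give, so no share here can pass 0.05. Of the ciliated ependymal nuclei, 14.0% ± 2.99 (SD, n = 3) in LPA and 1.60% ± 0.728 (SD, n = 3) in vehicle were of forming-cilia type (exact permutation p = 0.1). Without the mitochondrial filter, an alternative added after the data had been seen, the shares of ciliated nuclei were 12.7% ± 2.10 (SD, n = 3) and 0.898% ± 0.354 (SD, n = 3). Every LPA library was above every vehicle library in each of these shares. Of the 87 nuclei, 2 had a barcode that another library also held.

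Counting nuclei by the genes alone, without clusters, gave a like picture. Nuclei with at least 3 of Mcidas, Deup1, Ccno and Cdc20b numbered 28, 25 and 40 in the LPA libraries and 3, 1 and 2 in the vehicle libraries. Of the 93 such nuclei in LPA, 64 were of forming-cilia type and 19 lay in the mixed ependymal sub-clusters. The vehicle libraries had 6 such nuclei, 3 of forming-cilia type and 2 in the mixed sub-clusters.

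**Figure D4:**
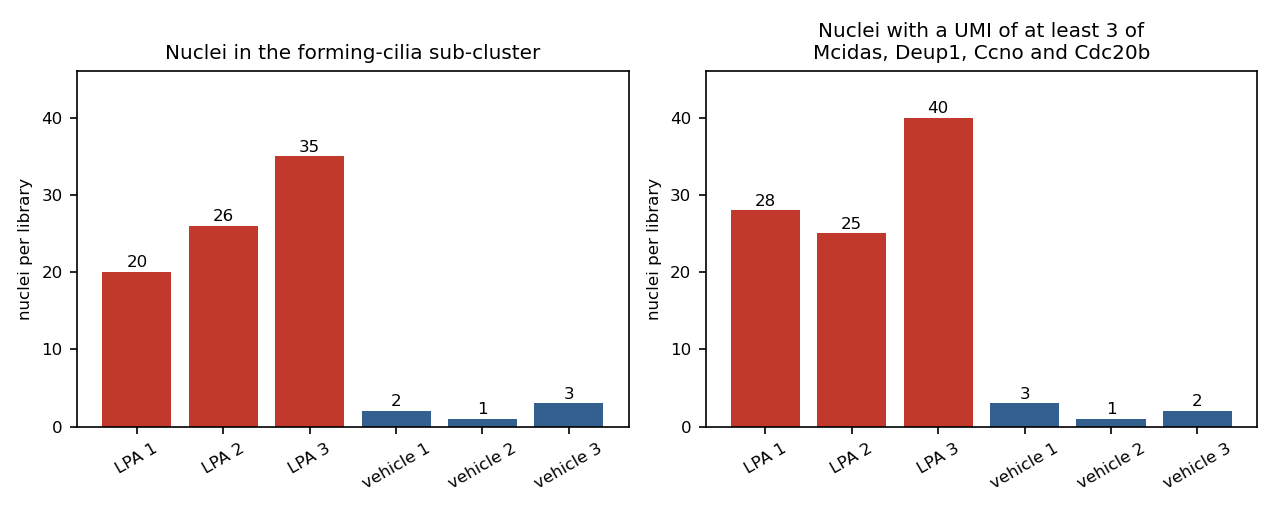
The number of nuclei per library (bars from 0) in the forming-cilia sub-cluster, left, and of nuclei with a UMI of at least 3 of Mcidas, Deup1, Ccno and Cdc20b, right. The LPA bars range from 20 to 35 and from 25 to 40 nuclei, and the vehicle bars from 1 to 3 nuclei in both panels.

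The share of ciliated ependymal nuclei with a UMI of a member was compared also after each nucleus was thinned to 2000 UMIs, since the LPA nuclei were deeper. Mcidas was detected in 10.5% ± 1.84 (SD, n = 3) of the ciliated nuclei in LPA and 1.14% ± 0.541 in vehicle, and thinned in 8.17% against 0.689% (exact permutation p = 0.1 for both). Plk4 had 11.0% against 3.60%, and thinned 7.51% against 2.59%. For Gmnc the share was 16.2% against 9.31% as counted but 8.80% against 8.74% when thinned, so that its difference was not found at equal depth (exact permutation p = 1). Foxj1 had 39.6% against 33.3%, and thinned 26.3% against 26.8%. The share of immune nuclei with a UMI was 0.135% for Mcidas, 1.48% for Plk4, 1.26% for Gmnc and 0.270% for Foxj1. Thinning left out 8, 12 and 12 ciliated nuclei of the LPA libraries and 11, 12 and 41 of the vehicle libraries.

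With the 87 forming-cilia nuclei left out of the sums over all nuclei, the log2 fold-changes were smaller. This alternative was added after the data had been seen. The log2 fold-change of Mcidas was then 1.61 (edgeR adjusted p = 0.0114), that of Cdc20b 1.97 (0.000780), that of Deup1 1.5 (0.00710), that of Ccna1 1.70 (0.0184) and that of Myb 0.91 (0.0301). All 5 kept their call, while Ccno had a log2 fold-change of 0.75 (edgeR adjusted p = 0.448). Outside the 87 nuclei Mcidas had 40, 33 and 39 UMIs in the LPA libraries and 15, 12 and 11 UMIs in the vehicle libraries. Part of these UMIs were in the mixed ependymal sub-clusters, which held 48 of the 340 Mcidas UMIs and 466 of the 2915 Cdc20b UMIs.

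In mature ependymal nuclei 8251 genes were tested and 1.47% were called (0.933% higher in LPA). Of the 10 members, 6 passed the filter on low counts and 1, Ccna1, rose. Ccna1 had 35, 10 and 32 UMIs in the LPA libraries and 12, 3 and 0 UMIs in the vehicle libraries, or 49.7, 21.8 and 50.5 CPM against 21.5, 12.3 and 0 CPM. LPA 2 and vehicle 1 were close together, and the log2 fold-change was 1.63 ± 0.44 (SE, edgeR adjusted p = 0.0497). The call was lost without LPA 1, LPA 3, vehicle 2 or vehicle 3, with an edgeR adjusted p from 0.0907 to 0.214. Most of these Ccna1 UMIs were in 1 sub-cluster of 115 mature nuclei led by Gm48606, 1700111N16Rik and Abca8a, of which 37, 25 and 49 were in the LPA libraries and 3, 1 and 0 in the vehicle libraries. That sub-cluster had 60 Ccna1 UMIs and no UMI of Mcidas, Cdc20b or Ccno. Outside it Ccna1 had 9, 4 and 6 UMIs in the LPA libraries and 10, 3 and 0 UMIs in the vehicle libraries, which overlapped, and did not pass the filter. The mature nuclei of the groups were thus spread in different proportions over the sub-clusters. The sub-cluster led by Gm48606 and one of 153 nuclei led by Ccn5 held 235 of the 497 mature nuclei in LPA and 33 of the 376 in vehicle. The other 3 mature sub-clusters held 262 nuclei in LPA and 343 in vehicle.

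The other members were not called in mature nuclei. Deup1 had 68.1, 50.1 and 90.0 CPM in the LPA libraries and 37.7, 40.9 and 34.6 CPM in the vehicle libraries (log2 fold-change 0.91 ± 0.27, edgeR adjusted p = 0.0833), and was called without LPA 2 (edgeR adjusted p = 0.0416). Trp73 (0.34 ± 0.16), Myb (0.24 ± 0.17), Gmnc (0.22 ± 0.27) and Foxj1 (-0.15 ± 0.18) had edgeR adjusted p from 0.401 to 0.830. Foxj1 had 135, 122 and 156 CPM in the LPA libraries and 187, 131 and 128 CPM in the vehicle libraries. The LPA libraries were within the vehicle range but for LPA 2, which was lowest. Of the 4 members that did not pass the filter, Mcidas had 6, 2 and 0 UMIs in the LPA libraries and 0, 0 and 2 in the vehicle libraries. Plk4 had 10 UMIs in LPA and 9 in vehicle, and Ccno had 4 and 2. Cdc20b had 12, 29 and 2 UMIs in the LPA libraries and 3, 2 and 1 in the vehicle libraries. A single nucleus held 10 of the 12 UMIs in LPA 1 and a single nucleus held 27 of the 29 in LPA 2.

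In choroid plexus nuclei 3 members (Gmnc, Foxj1 and Trp73) passed the filter and none was called, where 0.0795% of 10061 genes were called (0% higher in LPA). The log2 fold-change of Gmnc was -0.06 ± 0.10, which is small against its SE, with an edgeR adjusted p of 0.95. Foxj1 had 37.4, 27.8 and 23.2 CPM in the LPA libraries and 31.6, 30.9 and 32.8 CPM in the vehicle libraries (log2 fold-change -0.11 ± 0.25, edgeR adjusted p = 0.965). Trp73 had 76.2, 58.8 and 71.9 CPM against 80.1, 61.8 and 56.7 CPM (log2 fold-change 0.05 ± 0.19, edgeR adjusted p = 0.989). The groups overlapped for all 3 genes, none had an unadjusted p under 0.05 and DESeq2 called none. The effect of LPA in mature ependymal nuclei was tested against that in choroid plexus nuclei by the interaction term, with library as a block. Of 10841 genes 0.148% were called (0.083% with a higher effect in mature nuclei), and of the 6 members that could be tested none was, none had an unadjusted p under 0.05 and DESeq2 called none. The difference was 0.31 ± 0.28 on the log2 scale for Gmnc (edgeR adjusted p = 0.860), 0.29 ± 0.25 for Trp73 (0.857) and -0.05 ± 0.32 for Foxj1 (0.983). A miss of the threshold does not show that the 2 epithelia responded alike. Nuclei that Scrublet called doublets were kept in both types here. Without them 102, 143 and 116 of 130, 180 and 150 choroid plexus nuclei were left in LPA 1 to LPA 3. In vehicle 1 to vehicle 3 these were 128, 82 and 156 of 171, 107 and 207. Of the mature nuclei, 166, 142 and 178 of 170, 143 and 184 were left in LPA. In vehicle they were 175, 74 and 119 of 177, 79 and 120.

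Astrocytes were the type outside the ependyma with the most members called. Of 14614 genes tested 8.18% were called (5.01% higher in LPA), and of the 7 members that passed the filter 3 rose (Cdc20b, Deup1 and Myb). All 3 passed through the LPA libraries alone, with no vehicle library at the level the filter asks for (1.71 CPM), so they had to differ and the calls are a description. With no filter on low counts they were called as well. Cdc20b had 44, 90 and 55 UMIs in the astrocytes of LPA 1 to LPA 3 and 1, 9 and 7 UMIs in those of vehicle 1 to vehicle 3 (log2 fold-change 3.07 ± 0.35, edgeR adjusted p = 1.48e-05). Deup1 had 20, 30 and 23 UMIs against 4, 0 and 2 UMIs (log2 fold-change 3.15 ± 0.52, edgeR adjusted p = 0.000655). Myb had 33, 55 and 18 UMIs against 3, 10 and 6 UMIs (log2 fold-change 2.07 ± 0.38, edgeR adjusted p = 0.00156). The groups did not overlap in UMIs for any of the 3 genes, and 12.2% of all genes tested had LPA above vehicle without overlap. A part of these UMIs was in 12 nuclei (2, 7 and 3 in the LPA libraries, none in the vehicle libraries) that had at least 2 of Mcidas, Deup1, Ccno and Cdc20b. All 12 lay in the astrocyte cluster led by Gfap, which had 423, 529 and 428 nuclei in the LPA libraries and 125, 253 and 224 in the vehicle libraries. The 12 nuclei had a median of 6 of 12 ependymal markers with a UMI, against 0 in the other astrocytes, and a median of 7 of 12 astrocyte markers. Scrublet had called 1 of them a doublet. Without the 12 nuclei Cdc20b still had 3.69, 3.79 and 6.26 CPM in the LPA libraries and 0.287, 1.47 and 1.43 CPM in the vehicle libraries. In both counts all LPA libraries were above all vehicle libraries. In a finer clustering (Leiden resolution 2) Cdc20b was still called and Deup1 and Myb did not pass the filter in astrocytes. The part of ependymal RNA in these values was not tested.

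In the remaining types 1 member was called. In oligodendrocyte lineage nuclei 11.9% of 15323 genes were called (7.56% higher in LPA), and of 6 members that passed 1 rose, Cdc20b, with 9, 16 and 22 UMIs in the LPA libraries and 3, 8 and 5 in the vehicle libraries (log2 fold-change 1.56 ± 0.41, edgeR adjusted p = 0.0180). These UMIs lay in 9, 14 and 22 nuclei of the LPA libraries, nearly all with 1 UMI, and Cdc20b was detected in 0.462% of these nuclei, as in 0.450% of immune nuclei. This share reads as background, no vehicle library was at the level the filter asks for (0.967 CPM), and the call was lost without LPA 2, LPA 3, vehicle 1 or vehicle 3 (edgeR adjusted p from 0.0557 to 0.0916). Immune nuclei had 2, 5 and 4 Cdc20b UMIs in the LPA libraries and none in the vehicle libraries. The LPA libraries had 448, 603 and 473 immune nuclei and the vehicle libraries 148, 403 and 148, at a lower median depth. These few UMIs therefore do not show a difference in level. None was called of the 7 members that passed in neuronal nuclei (0.0593% of 16850 genes called, 0.0297% higher in LPA), of the 3 in vascular nuclei (8.36% of 14320, 4.86% higher) or of Plk4, the only one in immune nuclei (4.5% of 10297, 2.85% higher). Of these, Plk4 in immune nuclei alone had an unadjusted p under 0.05, and DESeq2 called none. In neuronal nuclei of vehicle 3, 1 nucleus held 33 of the 43 Cdc20b UMIs.

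The genes next to the 3 members on chromosome 13 were compared in the same sums over all nuclei. Of the neighbors, Plpp1, Mtrex, Dhx29, Gpx8, Esm1 and Slc38a9 were tested and none was called. Their log2 fold-changes were 0.14 for Plpp1, -0.02 for Mtrex, 0.06 for Dhx29, -0.17 for Gpx8, -0.67 for Esm1 and -0.04 for Slc38a9, with edgeR adjusted p from 0.196 to 0.878, and Esm1 alone had an unadjusted p under 0.05. Gpx8 lies within Cdc20b on the other strand. The 3 members had log2 fold-changes of 1.57 (Ccno, not called), 2.83 (Mcidas) and 3.02 (Cdc20b).

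**Figure D5:**
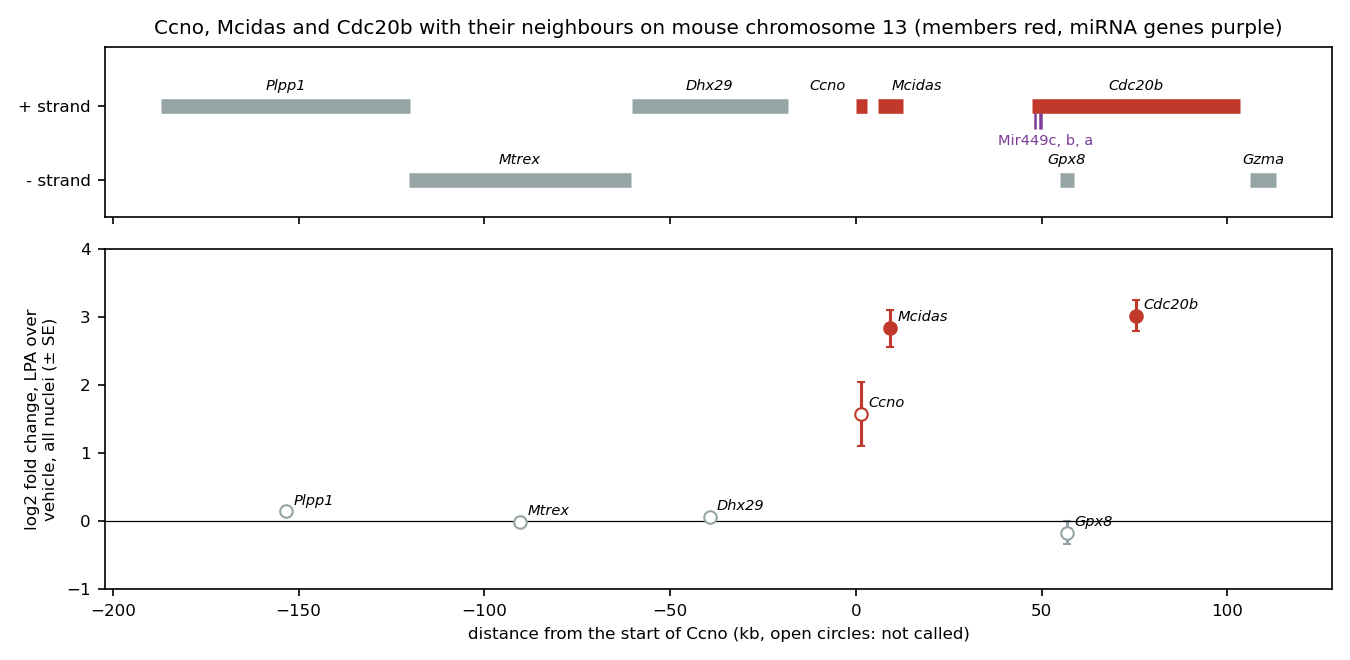
The genes around Ccno, Mcidas and Cdc20b by strand (top) and their log2 fold-change of LPA over vehicle in the UMIs summed over all nuclei, with bars of 1 SE from edgeR (bottom), against the distance from the start of Ccno in kilobases. Mcidas (2.83) and Cdc20b (3.02) were called and stand above the open circles of Ccno (1.57), Plpp1, Mtrex, Dhx29 and Gpx8, of which the last 4 lie between -0.17 and 0.14.

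Further genes of the programme were taken from 5 lists. Among 21 centriole assembly genes, 20 were tested in ciliated nuclei, 6 rose and none fell, with a median log2 fold-change of 0.56 against 0.00 over all genes. Stil, a partner of Plk4 in starting a centriole, had 37, 60 and 126 UMIs in the LPA libraries and 6, 2 and 8 in the vehicle libraries (log2 fold-change 2.79 ± 0.42, edgeR adjusted p = 5.61e-05). Cep152, the centriolar anchor of Plk4, had a log2 fold-change of 1.66 ± 0.25, Cep295 one of 1.33 ± 0.28 and Cep135 one of 0.79 ± 0.19. Stil and Cep152 kept their calls in 14 of 14 alternatives, Cep295 in 12 and Cep135 in 10. Without LPA 3 no gene of the list other than Stil and Cep152 was called, and without vehicle 1 Stil, Cep152 and Cep78 were. Stil, Cep152 and Cep78 are also among the markers used to name the forming-cilia nuclei, which came mostly from the LPA libraries. The genes of the list can thus differ in ciliated nuclei by the share of forming-cilia nuclei alone. In mature nuclei 17 of the 21 were tested and none was called, where 1.47% of all genes were called. Over all nuclei 3 of the 21 rose (Cdk5rap2, Stil and Cep152) and 1 fell (Sass6, log2 fold-change -0.32 ± 0.07), where 5.62% of all genes were called, with a median of 0.04 against -0.01 over all genes. The call of Sass6 held in 5 of 12 alternatives and that of Cep152 in 7, each lost with LPA 1, LPA 2, vehicle 2 or vehicle 3 left out, Sass6 also without LPA 3. Sass6 encodes the protein of the centriole cartwheel. Whether the list differed between the ciliated nuclei and the whole brain was not tested.

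Of the 16 cell division genes that centriole amplification shares, 3 passed the filter on low counts in ciliated nuclei and 2 rose, where 3.97% of all genes were called. Only 1 vehicle library had Top2a at the level the filter asks for (17.5 CPM). Top2a, a topoisomerase of dividing cells, had 31, 66 and 97 UMIs in the LPA libraries and 5, 4 and 8 UMIs in the vehicle libraries (log2 fold-change 2.51 ± 0.41, edgeR adjusted p = 0.000151), and was called in 14 of 14 alternatives. E2f7, a repressor of the E2F family, had a log2 fold-change of 1.27 ± 0.32 (edgeR adjusted p = 0.0177), a call that held in 8 of 14 alternatives and was lost without LPA 3, vehicle 1 or vehicle 2. Over all nuclei all 16 were tested, and E2f7 (log2 fold-change 0.88 ± 0.12) and Top2a (0.74 ± 0.14) rose, where 5.62% of all genes were called. These calls held in 11 and 8 of 12 alternatives, and both were lost without the forming-cilia nuclei. In the forming-cilia nuclei Top2a had 204 UMIs in 71 nuclei and Mki67, another gene of dividing cells, had 1 UMI. As a description of the sub-cluster, 14 of the 16 genes and 19 of the 21 centriole assembly genes had a higher CPM in forming-cilia than in mature nuclei, against 41.9% of all genes with a UMI in either. E2f7, and Stil, Cep152 and Cep78 of the centriole assembly genes, are also among the markers used to name the sub-cluster. Both counts were therefore set in part by the naming.

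Of the 16 transcription partners and targets and the 13 Notch pathway genes, 15 and 13 were tested over all nuclei. There 2 and 1 of them rose and none fell, where 5.62% of all genes were called. In ciliated nuclei 9 and 5 of them were tested, with medians of 0.14 and -0.06. None was called there by edgeR or DESeq2, where edgeR called 3.97% of all genes. Nfix (-0.36) and Six3 (-1.11) were the genes with an unadjusted p under 0.05. Over all nuclei Foxn4, a forkhead factor of multiciliated progenitors, rose from 7, 2 and 3 UMIs in the vehicle libraries to 30, 21 and 46 in the LPA libraries (log2 fold-change 3.03 ± 0.51, edgeR adjusted p = 0.0119). Foxn4, too, passed the filter through the LPA libraries alone. Rfx2, a factor of ciliary genes, rose by a log2 fold-change of 0.78 ± 0.14 and Dll3, a Notch ligand, by 0.76 ± 0.15. The call of Foxn4 held in 10 of the 11 alternatives that gave it an adjusted p, that of Rfx2 in 10 of 12 and that of Dll3 in 8 of 12. Each of these 3 calls was lost without vehicle 3, and those of Rfx2 and Dll3 also without LPA 1. That of Dll3 was lost as well without LPA 2 and with Scrublet calls left out. In ciliated nuclei Foxn4 did not pass the filter. It was called there in 6 of the 7 alternatives that gave it an adjusted p, the exception being without vehicle 1 (edgeR adjusted p = 0.140). Foxn4 is also among the markers used to name the forming-cilia nuclei, which came mostly from the LPA libraries. It had 68 UMIs in those nuclei and 5 in mature nuclei, so its calls in ciliated nuclei are a description. Over all nuclei the other 13 transcription genes and 12 Notch genes tested were not called.

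The 16 ciliary targets, which encode parts of the motile cilium, were mostly not called. Over all nuclei all 16 were tested and 1 rose, Ccdc39 (log2 fold-change 0.35 ± 0.07), where 5.62% of all genes were called. That call held in 7 of 12 alternatives and was lost without the forming-cilia nuclei. The median log2 fold-change of the list over all nuclei was 0.46, against -0.01 over all genes. Whether the list as a whole rose was not tested. In ciliated nuclei all 16 were tested, 2 rose (Ccdc39, log2 fold-change 0.81 ± 0.11, and Dnaic2, 0.71 ± 0.20) and the median was -0.01. Ccdc39 had 978, 995 and 1011 CPM in the LPA libraries and 531, 599 and 575 CPM in the vehicle libraries. The groups did not overlap, as was so with LPA above vehicle for 11.0% of all genes tested. Ccdc39 was called in 14 of 14 alternatives, while the call of Dnaic2 held in 6 and was lost without LPA 2, LPA 3, vehicle 2 or vehicle 3. In forming-cilia against mature nuclei Ccdc39 had 1711 against 727 CPM and Dnaic2 192 against 93.2 CPM. Both can thus differ in ciliated nuclei by the share of forming-cilia nuclei. In mature nuclei Ccdc39 alone of the 16 was called, though not without the sub-cluster led by Gm48606 (edgeR adjusted p = 0.261), and in choroid plexus nuclei none of the 13 tested was. In astrocytes 15 were tested, of which 6 rose and 1 fell (Tekt4), where 8.18% of all genes were called. The 12 astrocytes with ependymal markers described above were all in LPA libraries, and their part in this count was not tested. In ciliated nuclei 6 of 20 centriole assembly genes and 2 of 16 ciliary targets were thus called, where 3.97% of all genes were, and the difference between both lists was not tested.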

How the data were processed

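Brains of 3 mice injected with LPA and 3 injected with vehicle, without cerebellum and olfactory bulbs, gave 1 library of NeuN-negative nuclei each (10x Genomics 3′ v3). The authors aligned reads with Cell Ranger 4.0.0 to a pre-mRNA reference of mm10, and deposited filtered matrices of raw UMI counts per gene and nucleus without normalization. Group and replicate number were taken from the sample titles. Each library is 1 mouse, and the library was the unit of every test.

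The filters of the study removed nuclei under 300 genes or over 1% mitochondrial UMIs, and those with UMIs over 1.5 interquartile ranges above the third quartile of the library, a factor chosen here. Leiden clustering at resolution 1 used 30 neighbors in 40 principal components of 3000 variable genes (scanpy 1.11.5, leidenalg 0.10.2, seed 1). The ependymal clusters were clustered again on 2000 variable genes, 20 components and 20 neighbors. A cluster was named from at least 3 markers detected in 10% of its nuclei, and the forming-cilia sub-cluster from at least 4 markers raised by 1 log2 unit, without Mcidas, Deup1, Ccno and Cdc20b. Scrublet called 12.3% to 15.4% of nuclei as doublets. Nuclei so called were dropped only in one of the alternatives, but clusters with over 50% of such nuclei stayed unnamed or were taken as mixed.

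UMIs were summed per library and type where every library had at least 10 nuclei. The sums were tested with the quasi-likelihood test of edgeR 4.0.16 (R 4.3.3), with TMM factors, the default filter on low counts and Benjamini-Hochberg adjustment over all genes tested in a comparison. The study's Wilcoxon test on single nuclei was not used, since nuclei of a mouse are not replicates, but its limit of 0.25 on the log2 fold-change was. CPM are the UMIs of a gene per 1000000 UMIs of the summed nuclei. Shares were compared by a two-sided exact permutation test with 20 assignments. The forming-cilia nuclei of the vehicle libraries were too few for a fit. The test was also run on simulated counts with the same dispersion for every gene. Changes were set there only in genes above the median count, so recovery of genes with few UMIs was not checked. Intervals and limits from a count of 0 (3 counts of the total) cover counting error only.

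All 10 regulators are described. From each list the called genes of lowest adjusted p in all nuclei and in ciliated nuclei are named, up to 4 per direction. The neighbors on chromosome 13, the genes most like a member and Mki67, Tekt4, Hes6 and Mycl were named after values had been seen. The regulators and the lists were chosen with earlier results of these data known. Reads of Deup1, Cdc20b, Myb, Ccna1 and Trp73 overlap genes on the other strand, and the 3′ kit keeps the strand. The alternatives were DESeq2 1.42.0, no filter on low counts, no mitochondrial filter, Scrublet calls left out, markers among the clustered genes, Leiden resolution 2, nuclei thinned to 2000 UMIs, a replicate block and each library left out. Added after the data had been seen were the shares of forming-cilia nuclei with no mitochondrial filter, the mixed sub-clusters put back, and the sums without the forming-cilia nuclei or without the sub-cluster led by Gm48606.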

Additional observations from a re-analysis of the deposited data

How the results depend on the processing

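In all nuclei Mcidas, Cdc20b, Deup1, Ccna1 and Myb kept their calls in 12 of 12 alternatives, and in ciliated nuclei Mcidas, Cdc20b, Deup1, Ccna1 and Plk4 in 14 of 14. Mcidas and Plk4 passed the filter in ciliated nuclei through the LPA libraries alone, so their calls there remain a description. The calls of few UMIs moved, and the cause was not tested. In mature nuclei the count of members called (1 as reported) was 2 with no filter on low counts, with markers among the clustered genes and at Leiden resolution 2, 0 with DESeq2 and without the sub-cluster led by Gm48606, and 0 to 2 with a library left out. In astrocytes it was 1 in place of 3 at Leiden resolution 2. In oligodendrocyte lineage nuclei it was 3 with no filter, 2 without Scrublet calls and 0 with DESeq2 in place of 1, and 0 to 1 with a library left out. DESeq2 gave Ccna1 and Cdc20b no adjusted p there.

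Changes of sign were seen in members that were not called. Plk4 in all nuclei was -0.012 on the log2 scale without the forming-cilia nuclei, and Gmnc -0.12 to 0.53 with a library left out. Foxj1 in ciliated nuclei was -0.0011 without Scrublet calls, -0.029 with markers among the clustered genes and -0.10 to 0.25 with a library left out. In mature nuclei Foxj1 was 0.039 with no mitochondrial filter and -0.26 to 0.10 with a library left out, and Gmnc -0.14 without the sub-cluster led by Gm48606. In choroid plexus nuclei the ranges with a library left out were -0.15 to 0.062 for Gmnc, -0.30 to 0.019 for Foxj1 and -0.072 to 0.23 for Trp73. The difference between both epithelia for Foxj1 was 0.046 with no filter, 0.10 without Scrublet calls, 0.015 with DESeq2 and -0.28 to 0.20 with a library left out. The share of ciliated nuclei with Foxj1, thinned to 2000 UMIs, was lower in LPA by 0.54 percentage points (-0.54).

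The labels give both groups the replicate numbers 1 to 3, but nothing says that a number pairs mice, and the correlation of same-numbered libraries ranged from -0.13 to 0.24. With a replicate block, 6 members in place of 5 were called in all nuclei (Trp73, adjusted p = 0.0462) and 6 in place of 7 in ciliated nuclei (Trp73, adjusted p = 0.0606), and the counts in the other types did not change.

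Over all genes, the counts called moved with the tool, the filter and the library left out. They ranged from 484 to 1510 in all nuclei (1136 as reported), from 147 to 604 in ciliated (345), from 49 to 239 in mature (121) and from 0 to 79 in choroid plexus nuclei (8). The ranges were 742 to 1447 in astrocytes (1196), 1093 to 2183 in oligodendrocyte lineage (1817), 1 to 39 in neuronal (10), 245 to 767 in immune (463) and 575 to 1768 in vascular nuclei (1197), and 1 to 30 for the interaction (16). The vehicle libraries held 6 forming-cilia nuclei in all, which limits what can be said of that subtype in vehicle.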
